A study of Homo sapiens with 9 samples.

Results

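The collagen genes are the 44 genes whose name in the count table is COL, digits, A and digits with nothing after, out of 38147 genes kept from the table. They were read in all 9 libraries, and 37 of the 44 passed the minimum for testing (1 library or more with a log2 CPM over -2), as did 21071 genes of the whole table. The libraries are polyA-enriched RNA of the human osteosarcoma cell line U-2 OS, each from a flask of cells that had received Cas9 as mRNA and then 1 synthetic CRISPR guide (crRNA). The 3 guides were crSUGP1, which cuts the gene of the RNA-binding protein SUGP1, crXCR1, which cuts the gene of a chemokine receptor, and NTC, a non-targeting control guide. Each guide was used in 3 independent experiments with 1 library per guide and experiment, so that cells of all groups went through both transfections and the crXCR1 cells also carry a cut. The cells were edited as a population and not as clones. Sample labels give 72 h from guide to fixation and a guide concentration of 50 nM, in a protocol written for the screen in plates, and no other time or concentration was given for the flasks in the sources used here.

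Collagens are the main structural proteins of the extracellular matrix, and each molecule is a trimer of α chains wound into a helix. Fibrillar collagens build the cross-striated fibrils of bone, skin and cartilage, and type I collagen, made of α1 and α2 chains, is the collagen of bone. Network-forming type IV collagens make the sheets of basement membranes, type VI collagens make beaded microfilaments, and FACIT collagens (fibril-associated collagens with interrupted helices) sit on the surface of fibrils. Since the chains of a heterotrimer come from different genes, the level of 1 chain relative to its partners is of interest beside the level of each.

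Stretches of DNA upstream of collagen genes are shown because results below turn on their genes. COL4A1 and COL4A2 lie head to head with starts 127 bases apart and are at high levels, COL19A1 differed most in 1 of the 3 experiments, and COL5A3 is the sole member that the main test called between guides. The sequences are those of RefSeq (GRCh38.p14), in lower case with the CCAAT box, the GC box GGGCGG and the TATA box TATAAA in capitals where they occur on either strand. The first runs on the plus strand of chr13:110307158-110307283, between the start of COL4A1 on the left (minus strand) and that of COL4A2 on the right (plus strand). The others are the 250 bases before the gene's start, on the strand of the gene, at chr6:69866306-69866555 (plus strand) and chr19:10010505-10010754 (minus strand).
COL4A1-COL4A2: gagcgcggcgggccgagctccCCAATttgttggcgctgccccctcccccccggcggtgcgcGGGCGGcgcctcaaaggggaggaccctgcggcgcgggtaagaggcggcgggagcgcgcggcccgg
COL19A1: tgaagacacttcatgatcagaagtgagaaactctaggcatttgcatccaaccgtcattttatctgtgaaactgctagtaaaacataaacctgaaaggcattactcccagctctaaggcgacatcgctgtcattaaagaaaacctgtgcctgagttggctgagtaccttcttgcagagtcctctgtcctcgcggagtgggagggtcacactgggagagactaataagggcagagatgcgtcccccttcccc
COL5A3: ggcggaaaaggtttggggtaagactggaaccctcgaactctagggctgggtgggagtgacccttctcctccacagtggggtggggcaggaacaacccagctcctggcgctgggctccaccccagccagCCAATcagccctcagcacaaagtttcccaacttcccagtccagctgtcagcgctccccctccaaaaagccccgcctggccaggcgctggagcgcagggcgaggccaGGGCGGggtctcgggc
The bases between COL4A1 and COL4A2 hold a CCAAT and a GGGCGG and are 80.2% G or C, those of COL5A3 hold a CCAAT and a GGGCGG and are 66.0% G or C, and those of COL19A1 hold none of the 3 motifs and are 48.4% G or C. RefSeq windows were matched for 32 of the 44 members. GGGCGG (or CCGCCC, its reverse complement) stood in the 250 bases before the start of 18 of the 32, against 42.3% of 27305 promoters, CCAAT (or ATTGG) in 9 of the 32, against 33.0%, and TATAAA (or TTTATA) in 5 of the 32, against 11.1%. These are matches of letters in a window and describe the sequence alone. The 12 members without a matched window are COL1A1, COL1A2, COL2A1, COL3A1, COL5A2, COL6A1, COL6A5, COL8A1, COL9A3, COL14A1, COL20A1 and COL22A1.

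As a check of the labels, SUGP1 mRNA was at 7.87, 7.68 and 6.52 CPM in the crSUGP1 libraries, against 31.6, 29.0 and 28.2 CPM in crXCR1 and 30.2, 30.8 and 28.3 CPM in NTC. CPM, the count relative to the total of its library, is scaled here by the trimmed mean of M-values (TMM). Values are given for experiments 1, 2 and 3 in that order unless said otherwise. All 3 crSUGP1 libraries lay below the other 6 (two-sided exact permutation over 84 regroupings, p = 0.012, which is the lower limit for 3 libraries against 6). Libraries held 68712738 to 107952835 counts, so that 3 counts correspond to 0.0278 to 0.0437 CPM before scaling, and mitochondrially encoded genes took 4.03 to 5.01% of counts. Of 9 osteoblast lineage markers, 7 passed the minimum, among them RUNX2 at 16.9 to 27.5 CPM. The osteoblast transcription factor SP7 reached at most 0.0627 CPM and the bone matrix gene IBSP at most 0.0141 CPM, so both were near 0 in this osteosarcoma line. Of 8 chondrocyte markers, 8 passed, led by SOX9 at 137 to 191 CPM and HAPLN1 at 68.0 to 163 CPM.

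Levels of the collagen genes spanned more than 4 orders of magnitude. Of the 44 members, 9 averaged at least 100 CPM over the 9 libraries, 19 at least 10 CPM and 28 at least 1 CPM, while 5 were under 0.1 CPM. The highest was COL1A1, the α1 chain of type I collagen (ENSG00000108821, GRCh38 chromosome 17, 50184101 to 50201632, minus strand), with 601, 553 and 886 CPM in crSUGP1, 655, 681 and 1017 CPM in crXCR1 and 715, 608 and 973 CPM in NTC. Per kilobase of exon it ranked 449 among 21002 tested genes with a length. In all 3 guides its highest library was that of experiment 3, and the guides overlapped.

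COL4A2 and COL4A1, the α2 and α1 chains of the type IV collagen found in nearly all basement membranes, came next with means of 572 and 199 CPM. COL4A2 was at 536, 555 and 663 CPM in crSUGP1, 520, 517 and 608 CPM in crXCR1 and 545, 516 and 689 CPM in NTC. The beaded-filament chains COL6A2 and COL6A1 averaged 195 and 189 CPM. The fibril-nucleating chain COL5A1 averaged 143 CPM, the FACIT chains COL12A1 and COL16A1 140 and 108 CPM, and the third type VI chain, COL6A3, 102 CPM. COL27A1, a fibrillar collagen of cartilage, at 76.7 CPM, COL13A1, a transmembrane collagen, at 57.5 CPM, and COL8A1, a short-chain network collagen of vessels and the cornea, at 48.7 CPM complete the 12 highest.

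Together the 44 genes took 0.337 to 0.357% of all counts in the libraries of experiment 3, against 0.234 to 0.263% in the 6 libraries of experiments 1 and 2. As summed CPM this was 3379 ± 110 in experiment 3, 2452 ± 103 in experiment 2 and 2536 ± 130 in experiment 1 (SD, n = 3 each). By guide the sum was 2688 ± 510 in crSUGP1, 2822 ± 470 in crXCR1 and 2857 ± 569 in NTC (SD, n = 3 each). The guide means differed by less than these SDs, which include the differences between experiments. Within each experiment the sum was lowest in crSUGP1, at 2408, 2379 and 3277 in experiments 1, 2 and 3. It was 2532, 2569 and 3364 in crXCR1 and 2668, 2406 and 3496 in NTC. This difference was not tested. COL1A1 alone made up 23.3 to 30.2% of collagen counts in each library, and with COL4A2 46.4 to 48.3%.

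COL1A2, which encodes the α2 chain of type I collagen (chromosome 7, 94394895 to 94431227, plus strand), was nearly absent. Its raw counts were 10, 8 and 9 in crSUGP1, 9, 11 and 24 in crXCR1 and 17, 10 and 18 in NTC. As CPM the crSUGP1 libraries (0.0992 to 0.128) lay below those of NTC (0.141 to 0.195), and crXCR1 (0.105 to 0.215) overlapped both. These levels rest on few counts, and the difference was not tested. Over the 9 libraries COL1A2 had 116 counts and COL1A1 583431, a ratio of COL1A1 to COL1A2 counts of 5030 (95% exact Poisson interval 4193 to 6087, counting error only). Per kilobase the ratio was 6038 with all exons of each gene and 4314 with the canonical transcripts. Between libraries the ratio over all exons ran between 4793 and 8336.

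Other partner chains stood much closer to each other, given here as ratios per kilobase of all exons. COL4A2 to COL4A1 was 2.04 to 2.32 in the 9 libraries and COL6A1 to COL6A2 was 0.886 to 1.00. COL6A3 was below its partners, at 0.101 to 0.173 of COL6A2. COL5A1 exceeded COL5A2 by 3.76 to 5.23 times. Among chains of more restricted basement membranes, COL4A5 exceeded COL4A6 by 15.1 to 31.9 times and COL4A4 exceeded COL4A3 by 12.9 to 20.1 times. Both of these pairs lie head to head, as COL4A1 and COL4A2 do, with RefSeq starts 380 bases apart for COL4A5 and COL4A6 and 419 for COL4A3 and COL4A4. Of the cartilage FACIT collagen IX, COL9A2 exceeded COL9A3 by 10.5 to 16.7 times, and COL9A1 had 0 to 4 counts per library. COL11A1 exceeded COL11A2 by 5.76 to 6.20 times in experiment 3, against 4.19 to 5.64 times in experiments 1 and 2. These ratios depend on the length used. With the canonical transcripts COL4A2 to COL4A1 was 2.73 to 3.09 and COL4A5 to COL4A6 19.7 to 41.7, which is higher. By the same lengths COL6A1 to COL6A2 was 0.754 to 0.851 and COL4A4 to COL4A3 10.0 to 15.6, which is lower. COL4A3 shares 838 bases of exon with MFF-DT on the other strand, which was at 4.64 CPM before scaling where COL4A3 was at 0.171 CPM on average. Since the strand used in counting was not stated, reads of such pairs cannot be told apart.

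The largest differences among these libraries were between experiments. In experiment 3 against experiments 1 and 2, with guide as a term, 23 of the 37 tested collagen genes were called changed by edgeR's quasi-likelihood test (62.2%), against 10.6% of all 21071 tested genes. Calls needed an adjusted p (Benjamini-Hochberg, over all genes) no higher than 0.05 together with a log2 fold change of 0.5 or more in either direction. Of the 23, 20 were higher in experiment 3, where 7.46% of all genes were called higher, and 3 were lower, where 3.13% were. Among the 20, COL4A3 and COL28A1 passed the minimum for testing only through libraries of experiment 3, where they were higher. The median log2 fold change was 0.52 over the 37 members and 0.00 over all genes. Experiment 3 lay entirely above the other 6 libraries for 26 members and entirely below for 4, and overlapped them for 7. That makes 30 of 37 apart, where 30.5% of all genes were apart in either direction. What differed between the experiments is not given in the sources used here, and the experiment cannot be told apart from anything else that was shared by its 3 libraries. Experiment 3 is 1 experiment, so the p-values of this comparison do not measure how much experiments vary.

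Fibrillar collagens made up 7 of the 20 higher genes, of 10 tested. COL3A1 encodes type III collagen, which forms fibrils with type I in skin and vessels (chromosome 2, 188974373 to 189012746, plus strand). It was at 13.2, 16.5 and 14.5 CPM in the crSUGP1, crXCR1 and NTC libraries of experiment 3, against 4.45, 7.13 and 5.46 CPM in experiment 2 and 3.44, 5.48 and 5.68 CPM in experiment 1. The libraries of experiment 3 did not overlap the others, and the log2 fold change was 1.50 (SE 0.08, adjusted p = 5.8e-09, edgeR). Within guides the level in experiment 3 was 3.35 times the mean of the other 2 experiments in crSUGP1, 2.62 times in crXCR1 and 2.60 times in NTC.

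COL1A1 was at 886, 1017 and 973 CPM in the crSUGP1, crXCR1 and NTC libraries of experiment 3, against 553, 681 and 608 CPM in experiment 2 and 601, 655 and 715 CPM in experiment 1. Again no library of experiment 3 overlapped the others (log2 fold change 0.59, SE 0.05, adjusted p = 1.29e-07, edgeR). Its 3 within-guide ratios were 1.53 in crSUGP1, 1.52 in crXCR1 and 1.47 in NTC. COL1A2 overlapped between experiments, with 9 to 24 counts in experiment 3 and 8 to 17 in experiments 1 and 2.

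Cartilage fibril chains were higher too. COL2A1, the chain of type II collagen, had 1.59, 1.93 and 1.76 CPM in experiment 3 (crSUGP1, crXCR1, NTC), against 0.606 to 0.969 CPM in experiments 1 and 2 (log2 fold change 1.12, SE 0.12). Its type XI partners COL11A1 and COL11A2 had log2 fold changes of 0.81 and 0.52. COL5A1 and COL5A2, which nucleate type I fibrils, had 0.79 and 0.74. All of these were called. COL27A1 went the other way and fell just short of the fold threshold at -0.495, with 59.7, 60.2 and 60.6 CPM in experiment 3, against 78.3 to 94.5 CPM in the other 6 libraries. COL24A1 (log2 fold change 0.20, SE 0.24) and COL5A3 (0.00, SE 0.07) were not called.

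Of the network-forming collagens, 4 of 8 were higher. They were the chains of restricted basement membranes COL4A3 (log2 fold change 1.02, SE 0.22), COL4A4 (0.86, SE 0.08) and COL4A5 (0.502, SE 0.06), and COL8A2 (0.58, SE 0.15). COL4A3 passed the minimum for testing only through libraries of experiment 3 (0.213 to 0.296 CPM, against 0.0947 to 0.186 CPM in experiments 1 and 2). COL4A6, the partner of COL4A5, was at 0.04 (SE 0.18) and not called. The abundant chains COL4A1 and COL4A2 passed the adjusted p but had log2 fold changes of 0.36 and 0.30, under the fold threshold. COL4A2 was at 663, 608 and 689 CPM in experiment 3 (crSUGP1, crXCR1, NTC), against 516 to 555 CPM in experiments 1 and 2. COL4A1 was at 247, 209 and 246 CPM, against 176 to 188 CPM. For both, experiment 3 lay above the other 6 libraries.

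In type VI collagen, COL6A3 was called and its partners were not. COL6A3 was at 156, 121 and 164 CPM in experiment 3, against 68.9 to 86.5 CPM in experiments 1 and 2 (log2 fold change 0.89, SE 0.06, adjusted p = 6.93e-08, edgeR). COL6A1 and COL6A2 had 0.48 (SE 0.05) and 0.46 (SE 0.05). Experiment 3 lay above the other 6 libraries for all of the 3 chains. The ratio of COL6A3 to COL6A2 per kilobase was 0.129 to 0.173 in experiment 3 and 0.101 to 0.131 in experiments 1 and 2, ranges that overlap. COL7A1, which makes the anchoring fibrils under epithelia, had 0.36 (SE 0.05) and was not called.

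FACIT collagens went both ways, with 5 of 9 called higher and 1 called lower. COL22A1, found at myotendinous junctions, was at 32.9, 32.1 and 43.2 CPM in experiment 3, against 12.6 to 17.9 CPM in experiments 1 and 2 (log2 fold change 1.19, SE 0.08). COL9A2 was at 39.0, 46.2 and 48.6 CPM, against 17.2 to 27.4 CPM (1.05, SE 0.07), and COL9A3 had a log2 fold change of 0.89 (it shares 155 bases of exon with TCFL5 on the other strand, at 31.0 CPM before scaling, against 2.56 CPM for COL9A3). COL16A1 and COL14A1 had 0.54 and 0.58. COL12A1, the most abundant FACIT collagen, was at 121, 152 and 126 CPM in experiment 3, which overlapped the 118 to 163 CPM of experiments 1 and 2 (log2 fold change -0.11, not called).

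COL19A1, a FACIT collagen of basement membrane zones (chromosome 6, 69866556 to 70212468, plus strand), had the lowest fold change of all members. Its level was 0.468, 0.412 and 0.586 CPM in the crSUGP1, crXCR1 and NTC libraries of experiment 3, against 1.45, 1.52 and 1.73 CPM in experiment 2 and 1.52, 1.64 and 1.57 CPM in experiment 1. The groups did not overlap (log2 fold change -1.70, SE 0.13, adjusted p = 9.1e-08, edgeR). Raw counts of COL19A1 ran between 33 and 149 per library. It shares 85 bases of exon with LMBRD1 on the other strand (11.9 CPM before scaling).

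Both tested transmembrane collagens were lower in experiment 3. COL13A1, which acts at the neuromuscular junction, was at 45.9, 40.5 and 47.2 CPM in experiment 3, against 55.9 to 71.8 CPM in experiments 1 and 2 (log2 fold change -0.52, SE 0.04). COL17A1, a component of hemidesmosomes, was at 6.84, 6.96 and 7.04 CPM, against 9.89 to 12.4 CPM (-0.73, SE 0.07). Neither overlapped between the groups. Of the remaining classes, the endostatin precursor COL18A1 was called at 0.53 (it shares 1563 bases of exon with SLC19A1 on the other strand, at 44.2 CPM before scaling, against 27.1 CPM for COL18A1), COL15A1 was not at 0.41 (SE 0.12), and COL26A1 and COL28A1 were called at 0.74 and 1.03. COL28A1 passed the minimum for testing only through libraries of experiment 3 (0.269 to 0.349 CPM, against 0.0992 to 0.198 CPM in experiments 1 and 2).

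Leaving out each library in turn gave 21 to 24 called members, and 6 calls rest close to a threshold. COL4A5 fell short without NTC of experiment 2 (0.48), crSUGP1 of experiment 1 (0.47), crSUGP1 of experiment 3 (0.47) or crXCR1 of experiment 1 (0.49). COL18A1 fell short without NTC of experiment 2 (0.49), COL11A2 without crSUGP1 of experiment 3 (0.49), COL8A2 without crXCR1 of experiment 1 (0.47), and COL13A1 without crXCR1 of experiment 3 (-0.49). COL14A1 was not called by DESeq2 (adjusted p = 0.0725). In turn COL6A1 was called without NTC of experiment 1 (0.50), crSUGP1 of experiment 2 (0.51), crXCR1 of experiment 2 (0.51) or crXCR1 of experiment 3 (0.55), COL6A2 (0.50) and COL20A1 (0.545) without crSUGP1 of experiment 3, and COL27A1 without NTC of experiment 2 (-0.50) or crSUGP1 of experiment 1 (-0.50).

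The libraries of experiment 3 held 68712738, 107952835 and 90258350 counts (crSUGP1, crXCR1, NTC), against 71470063 to 97474318 in experiments 1 and 2. Across 16750 genes of at least 1 CPM, which are not independent replicates, Spearman's rho of the experiment 3 log2 fold change with exon length was 0.117 and with GC content 0.004. The 815 other genes at or above the members' lower quartiles of length and GC content were centred on 0.00 (median log2 fold change), with 8.96% called higher. Genes on marker lists of other cell types also moved. The summed CPM of 8 chondrocyte markers was 343 to 387 in experiment 3, against 238 to 297 in experiments 1 and 2, with 4 of 8 called higher. Most of that sum was SOX9 (mean 174 CPM, against 152 CPM, not called) and HAPLN1 (147 CPM, against 86.7 CPM, called). MATN1 (-0.07) and CHAD (-0.16) had negative log2 fold changes and were not called. Of 8 epithelial markers, 6 were tested and the sum was 34.9 to 39.1, against 24.7 to 27.1, with KRT14 called higher (log2 fold change 1.30) and CDH1 called lower (-0.56). Most of the epithelial sum was CLDN4 (mean 20.4 CPM, against 15.9 CPM, not called) and KRT14 (9.64 CPM, against 3.92 CPM). The 9 leukocyte markers summed to 16.0 to 18.0, against 27.8 to 31.6, which is nearly all CD68 (mean 15.5 CPM, against 27.8 CPM), the sole one called, while PTPRC (-0.17) and CSF1R (0.28) were not and CD3E was at 0. The sums of the 9 osteoblast markers (45.7 to 50.1, against 47.8 to 52.4) overlapped, although 4 of 7 tested were called, DLX5 and PHEX higher and ALPL and SPP1 lower. Those of the 8 endothelial markers (9.08 to 11.1, against 9.48 to 10.6) overlapped too, with TIE1 and KDR called in opposite directions and EMCN near 0. DLX5 and KDR passed the minimum for testing only through libraries of experiment 3, where they were higher. The part of these lists in the collagen differences was not tested. All libraries are bulk RNA of 1 cell line, U-2 OS, in which the share of cells with an RNA and its level per cell cannot be told apart.

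Genes that modify, cut, cross-link and bind collagen were read from lists beside the members. Of 21 genes of procollagen modification and folding, 0 were called in experiment 3 by edgeR or by DESeq2, while 10 had an unadjusted p under 0.05, as did 52.7% of all genes, and 14 of the 21 log2 fold changes were positive. The collagen chaperone SERPINH1 was at 335, 361 and 384 CPM in experiment 3 (crSUGP1, crXCR1, NTC), against 320 to 388 CPM in experiments 1 and 2, and the prolyl hydroxylase subunit P4HB at 1058, 888 and 931 CPM, against 867 to 1014 CPM. Both overlapped between the groups. The median log2 fold change of the 21 was 0.04.

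Of 15 genes of procollagen export and propeptide cleavage, 4 were higher and none lower. They were the N-propeptidases ADAMTS14 (log2 fold change 1.04) and ADAMTS2 (0.55), the tolloid protease TLL1 (0.88) and PCOLCE (0.59), which enhances C-propeptide cleavage. PCOLCE was at 136, 176 and 168 CPM in experiment 3, against 86.8 to 120 CPM in experiments 1 and 2. Of 5 cross-linking oxidases, LOXL1 (0.68) and LOXL4 (0.61) were higher, and LOX was at 39.3, 50.5 and 45.6 CPM in experiment 3, against 42.8 to 53.5 CPM. Fibril-associated proteins were higher in 5 of 10 tested, of 16 listed. These were lumican LUM (1.37), biglycan BGN (1.15), fibronectin FN1 (1.09), EMILIN1 (0.66) and THBS2 (0.58). FN1 was at 1098, 858 and 1226 CPM in experiment 3, against 431 to 550 CPM in the other 6 libraries. Of 10 tested genes for collagen receptors and uptake, 4 were higher, namely the integrin chains ITGA11 (0.85) and ITGA1 (0.82), the platelet receptor GP6 (0.66) and the uptake receptor MRC2 (0.66). The background for these counts of higher genes is the 7.46% of all genes called higher in this comparison (10.6% in either direction).

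Experiment 2 did not stand apart from experiment 1 in the same way. In this comparison 0 of 37 members were called by edgeR and 0 by DESeq2, against 0.0332% of all genes by edgeR, where DESeq2 called 0.0427% of all genes. Before adjustment 9 of the 37 members had a p under 0.05, a larger share than the 8.57% of all genes. The members of at least 1 CPM with the largest differences were COL3A1 (log2 fold change 0.22, SE 0.10), COL27A1 (-0.21, SE 0.04) and COL11A1 (0.18, SE 0.06). COL27A1 had the lowest adjusted p of all members at 0.119. Its level was 79.0, 79.0 and 78.3 CPM in experiment 2 (crSUGP1, crXCR1, NTC), against 88.8, 90.6 and 94.5 CPM in experiment 1, and 59.7 to 60.6 CPM in experiment 3.

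Between guides few collagen genes were called. For crSUGP1 against NTC, 0 of 37 members were called by edgeR, where 0.783% of all genes were called. Before adjustment 2 of the 37 members had a p under 0.05, a smaller share than the 13.2% of all genes. DESeq2 called 1 member, COL5A3, and 1.14% of all genes. For crSUGP1 against crXCR1, edgeR called 1 of 37, COL5A3, where 0.774% of all genes were called, as did DESeq2, where 1.27% were. For crXCR1 against NTC, edgeR called 0 members and 0.0% of all genes, 0 members had an unadjusted p under 0.05 in this fit without a block, and DESeq2 called 0. Both controls enter a comparison with the same crSUGP1 libraries. The median log2 fold change of the 37 members was -0.10 for crSUGP1 against NTC, -0.09 against crXCR1 and 0.06 for crXCR1 against NTC, where that of all genes was 0.00 in each.

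Of the 61 tested genes on the lists of collagen modification, export and cleavage, cross-linking, fibril-associated proteins and receptors, edgeR called 0 in each guide comparison. Before adjustment the genes with a p under 0.05 numbered 12 for crSUGP1 against NTC, 14 against crXCR1 and 1 for crXCR1 against NTC, where the shares of all genes were 13.2%, 16.1% and 1.34%. DESeq2 called 0 against NTC, 0 for crXCR1 against NTC and 2 against crXCR1, the transcription factor CREB3L1 and GP6. With experiment as a block, GP6 and ADAMTS14 were called against NTC and GP6 and CREB3L1 against crXCR1, which is 2 of 61 genes in each, where that fit called 2.85% and 3.90% of all genes. GP6 was at 1.57, 1.10 and 2.05 CPM in crSUGP1, 2.82, 2.43 and 4.25 CPM in crXCR1 and 2.65, 1.89 and 3.51 CPM in NTC, lower in crSUGP1 within each experiment, with ranges that overlapped those of NTC and lay below those of crXCR1.

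COL5A3 encodes the α3 chain of type V collagen (ENSG00000080573, chromosome 19, 9959561 to 10010504, minus strand). It was at 6.37, 5.24 and 5.03 CPM in crSUGP1, 7.95, 7.65 and 8.67 CPM in crXCR1 and 8.44, 7.56 and 8.05 CPM in NTC. All 3 crSUGP1 libraries lay below the other 6. The log2 fold change was -0.54 (SE 0.11, adjusted p = 0.0447, edgeR) against crXCR1 and -0.53 (SE 0.11, adjusted p = 0.0511) against NTC, so both stood at the threshold from either side. In crXCR1 against NTC it was 0.01 (SE 0.11).

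With experiment as a block, which the pairing of the libraries allows, COL5A3 was called against both controls (log2 fold change -0.54, adjusted p = 0.000363 against crXCR1, and -0.53, adjusted p = 0.000564 against NTC). The same paired fit called 3 of 37 members against crXCR1, where it called 3.90% of all genes, 1 against NTC, where it called 2.85%, and 0 for crXCR1 against NTC, where it called 0.00475%. The other 2 called against crXCR1 were COL3A1 (-0.53, adjusted p = 0.00164) and COL9A3 (-0.63, adjusted p = 0.00135). Before adjustment the paired fit gave 7 of 37 members a p under 0.05 against NTC, 12 against crXCR1 and 9 for crXCR1 against NTC. Of all 21071 genes it gave 6386, 7504 and 1393. The share of members was larger than that of all genes only for crXCR1 against NTC, where 0 members passed the adjusted p. Without the block the call of COL5A3 against crXCR1 was kept without crSUGP1 of experiment 1 (adjusted p = 0.0349). It was lost without any other single library, with adjusted p = 0.205 without crSUGP1 and 0.131 without crXCR1 of experiment 2, 0.0885 without crSUGP1 and 0.155 without crXCR1 of experiment 3, 0.135 without crXCR1 of experiment 1, and 0.0836, 0.0588 and 0.0592 without NTC of experiments 1, 2 and 3. Against NTC it was called without crSUGP1 of experiment 1 (-0.64, adjusted p = 0.0354).

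COL5A3 lies 9.27 Mb from SUGP1, on the side of the telomere of the short arm. The 522 other genes of at least 1 CPM on that side showed a median of -0.18 (log2 fold change) for crSUGP1 against NTC, with 489 negative, and of -0.19 against crXCR1, with 495 negative. Of these genes, 13 were lower than COL5A3 against NTC and 33 against crXCR1. The 721 genes of chromosome 19 on the other side had a median of 0.01 in both. The part of this shift in the value of COL5A3 was not tested.

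The members that follow had libraries that overlapped between guides. COL9A3 was at 1.79, 1.65 and 2.68 CPM in crSUGP1, 2.18, 2.48 and 5.04 CPM in crXCR1 and 1.94, 1.79 and 3.35 CPM in NTC, so that crSUGP1 was lower than crXCR1 within each experiment while the ranges overlapped. Its log2 fold change was -0.68 (SE 0.36, adjusted p = 0.393, edgeR) for crSUGP1 against crXCR1 and 0.46 (SE 0.36) for crXCR1 against NTC. Without crXCR1 of experiment 3 alone they were -0.19 and -0.029. COL3A1 had -0.48 (SE 0.60) against crXCR1 and -0.29 (SE 0.60) against NTC, and was lower in crSUGP1 than in either control within each experiment. COL22A1 had -0.31 (SE 0.48) for crSUGP1 against NTC. For crXCR1 against NTC, COL4A4 had 0.38 (SE 0.34), or 0.017 without crXCR1 of experiment 3, and COL26A1 0.32 (SE 0.30). The fits without crXCR1 of experiment 3 had no block and kept the other guides of that experiment. COL9A3, COL4A4 and COL26A1 were higher in crXCR1 than in NTC within each experiment. With the block they had 0.44, 0.37 and 0.30 (edgeR, adjusted p = 0.165, 0.158 and 0.491), and none was called. COL1A1 had -0.21 (SE 0.24) for crSUGP1 against crXCR1, -0.17 (SE 0.24) against NTC, and 0.04 (SE 0.24) for crXCR1 against NTC. It was lower in crSUGP1 than in either control within each experiment, and with the block its adjusted p was 0.0129 against crXCR1 and 0.0395 against NTC, at log2 fold changes of -0.21 and -0.17 that are under the fold threshold.

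**Figure D1:**
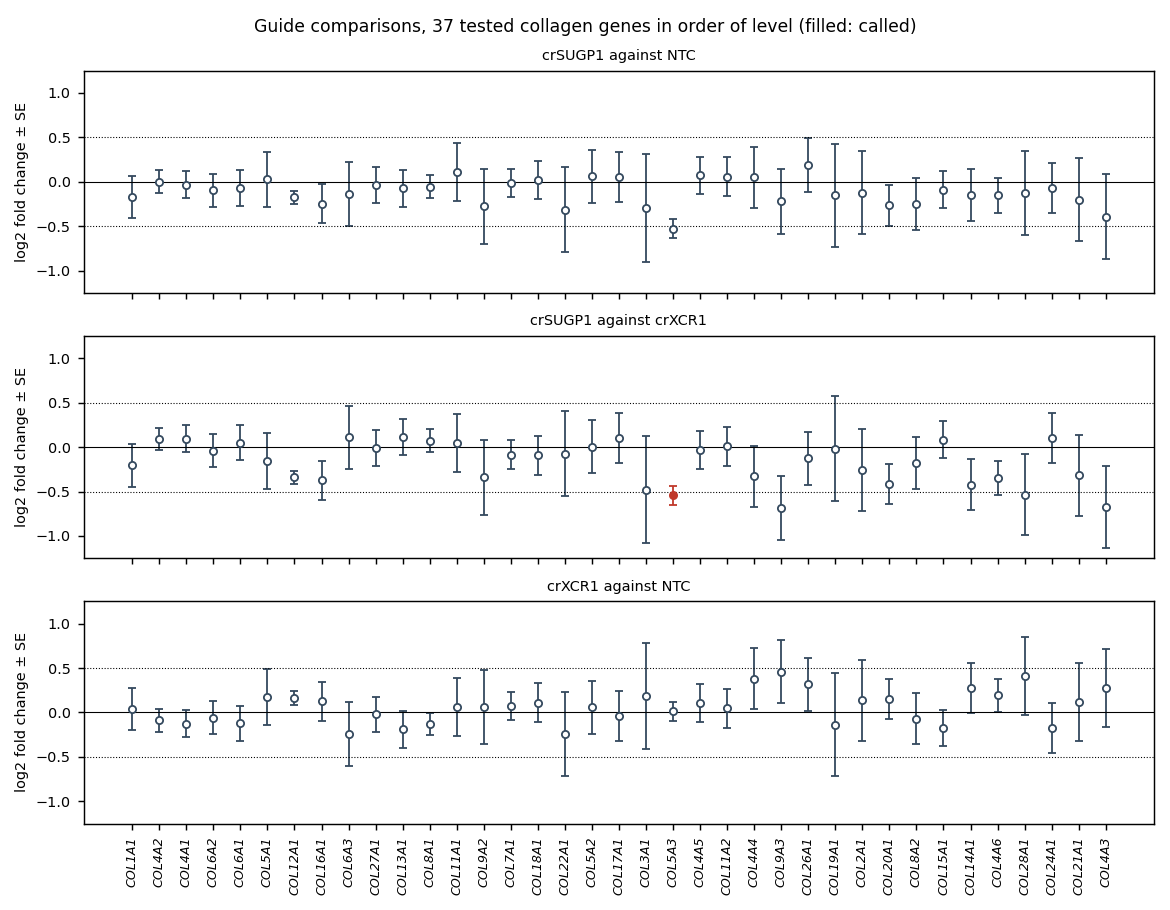
Log2 fold change of the 37 tested collagen genes for the 3 guide comparisons (edgeR, with standard error bars), in order of mean level. The filled point is COL5A3, the sole member called in this fit without a block, at -0.54 in crSUGP1 against crXCR1.

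The 9 tested FACIT collagens were all negative in crSUGP1 against NTC (median -0.22, range -0.31 to -0.15) and against crXCR1 (median -0.34, range -0.68 to -0.02), with 0 of 9 called in either by edgeR or DESeq2 and 1 of 9 at an unadjusted p under 0.05 in each. With the block COL9A3 was called against crXCR1 and none of the 9 against NTC. In crXCR1 against NTC, 7 of 9 were positive (median 0.13). These comparisons share libraries. The 10 fibrillar collagens had medians of -0.05 against NTC and -0.08 against crXCR1, and the 8 network-forming collagens -0.04 and -0.11. COL12A1 was at 132, 118 and 121 CPM in crSUGP1, 163, 155 and 152 CPM in crXCR1 and 146, 147 and 126 CPM in NTC, with crSUGP1 below crXCR1 throughout and overlapping NTC (log2 fold change -0.34, SE 0.08, adjusted p = 0.0664 against crXCR1, edgeR). COL12A1 and COL16A1 were lower in crSUGP1 than in either control within each experiment. With the block the log2 fold changes were -0.34 for COL12A1 (adjusted p = 0.000338) and -0.38 for COL16A1 (adjusted p = 0.00019) against crXCR1, and -0.17 (adjusted p = 0.0327) and -0.25 (adjusted p = 0.00471) against NTC, all under the fold threshold. Of the 37 members, 12 were lower in crSUGP1 than in NTC within each experiment, and 17 lower than in crXCR1. With the block 6 members had an adjusted p no higher than 0.05 against NTC and 8 against crXCR1. Among them were COL3A1 (-0.36) and COL22A1 (-0.29) against NTC, and COL9A2 (-0.36) and COL4A4 (-0.32) against crXCR1. The shares of all genes for these counts are not given here.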

How the data were processed

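RNA-seq of 9 libraries was used, 3 guides in 3 experiments. The authors deposited raw counts, made with SeqMonk from read pairs over exons after trimming and alignment to GRCh38 (38179 entries). The submitters' processing notes name STAR 2.7.9a, Trim Galore 0.6.7 and cutadapt 2.4. The strand used in counting was not stated. Among the entries of 51 names listed more than once, 2 identical repeats and 30 entries at 0 were dropped.

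The minimum for testing was a log2 CPM over -2 in 1 or more libraries. Tests used edgeR 4.0.16 in R 4.3.3 (quasi-likelihood, TMM, Benjamini-Hochberg over 21071 genes), with calls at adjusted p no higher than 0.05 and a log2 fold change of 0.5 or more in either direction. Guides were fitted alone (6 residual degrees of freedom) and experiments with guide as a term (4). The alternatives were DESeq2 1.42.0, RLE scaling, no filter, no fold threshold, the block, 6 libraries and fits without each library or experiment.

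Libraries held 68712738 to 107952835 counts. Low genes have the widest errors, and intervals cover counting error only. With guides fitted alone, p-values measure the spread between these experiments within guides. With the block, and for the comparisons of experiments, they measure the spread left among libraries after guide and experiment. The p-values for experiments therefore do not measure how much experiments vary. By the methods of the study, libraries with the same number come from 1 experiment, and their deviations from group means correlated at 0.498 to 0.902 (9 pairs, 16792 genes), against -0.854 to 0.660 for 18 other pairs, so the numbers were taken to pair the libraries.

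Exon lengths came from GENCODE 44 and promoters from RefSeq. Members and lists were chosen with earlier results of these data known, and 2 genes of the marker lists are not reported here. Named are the members called in any comparison, the 12 most abundant, the chains of heterotrimers, the 3 with the largest differences per comparison at 1 CPM or more, and up to 4 called genes of each list. The genes GP6, CREB3L1, SERPINH1, P4HB, LOX, FN1, THBS2 and ADAMTS14 were partly described beyond that rule, after their values were seen, as were members just under a threshold.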

Additional observations from a re-analysis of the deposited data

How the results depend on the processing

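Counts of called collagen genes in experiment 3 against experiments 1 and 2 stayed within 1.5 times of 23 under all settings run (22 with DESeq2, 23 with RLE scaling, 26 without the filter, 33 by adjusted p alone, 23 without the guide term, 21 to 24 without single libraries), with 22 of the 23 called by DESeq2, which called 8.57% of all genes. For crSUGP1 against NTC the count of 0 became 1 with DESeq2, 1 with the replicate block and 1 without experiment 3 (COL3A1), and 0 to 1 without single libraries. For crSUGP1 against crXCR1 the count of 1 became 3 with the replicate block, 0 without the filter, 0 in the fit to 6 libraries, 0 without experiment 1 and 0 without experiment 2. It stayed 1 without experiment 3, where the gene was COL3A1 in place of COL5A3, and was 0 to 1 without single libraries. The count of 0 for crXCR1 against NTC and for experiment 2 against experiment 1 stayed 0 under every setting run, single libraries included (0 to 0). The block changed no other collagen call.

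Directions turned for the following differences, none of them called in the fit of all 9 libraries without a block, and the cause was not tested. The guide fits without single libraries had no block, and each left 1 experiment without 1 of its guides. Without single libraries, the log2 fold change for crSUGP1 against NTC ran from -0.84 to 0.30 for COL22A1, from -1.13 to 0.33 for COL3A1 and from -0.41 to 0.040 for COL1A1. For crSUGP1 against crXCR1 it ran from -1.31 to 0.16 for COL3A1 and from -0.45 to 0.031 for COL1A1. For crXCR1 against NTC it ran from -0.029 to 0.80 for COL9A3, from -0.10 to 0.57 for COL26A1, from -0.20 to 0.25 for COL1A1, from -0.045 to 0.051 for COL5A3 and from -0.45 to 0.81 for COL3A1. There COL1A1 was -0.019 without experiment 2 and COL5A3 -0.043 without experiment 3. In experiment 3 against experiments 1 and 2, COL5A3 ran from -0.080 to 0.097 without single libraries. Fits without a whole experiment keep the guides balanced. For crSUGP1 against NTC without experiment 1, 2 or 3, COL3A1 had -0.18, -0.29 and -0.51 and COL22A1 had -0.25, -0.43 and -0.22. With the block and all 9 libraries, COL3A1 had -0.36 and COL22A1 -0.29. Members under about 1 CPM rest on few counts, and differences of the size of their errors were not detectable at this depth.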

Other observations

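The members under the minimum for testing besides COL1A2 are given as raw counts, in the order of experiments 1, 2 and 3. COL25A1, a transmembrane collagen of neurons, had 21, 17 and 5 counts in crSUGP1, 8, 17 and 9 in crXCR1 and 11, 9 and 6 in NTC. COL6A6 had 5, 5 and 8 in crSUGP1, 4, 7 and 9 in crXCR1 and 5, 6 and 13 in NTC, and its type VI relative COL6A5 had 4, 6 and 0 in crSUGP1, 9, 7 and 2 in crXCR1 and 9, 3 and 5 in NTC. COL10A1, the collagen of hypertrophic cartilage, had 5, 8 and 4 in crSUGP1, 6, 1 and 5 in crXCR1 and 5, 4 and 4 in NTC. COL23A1 had 2, 2 and 2 in crSUGP1, 4, 3 and 10 in crXCR1 and 2, 2 and 4 in NTC. COL9A1 had 0, 1 and 3 in crSUGP1, 0, 1 and 4 in crXCR1 and 0, 0 and 3 in NTC. None of the 44 members was at 0 in all libraries. Of these 6, COL23A1 was lower in all crSUGP1 libraries than in all of crXCR1, on counts of at most 10, and the guides otherwise overlapped.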
